A study of Mus musculus with 18 samples.

Results

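Uteri of wild-type (WT) mice whose ovaries had been removed were compared with and without replacement of estradiol (E2), the main ovarian estrogen. The comparison was chosen by its group labels alone and takes in 6 of the 18 RNA sequencing libraries of the study: WT E2 replicates 1, 2 and 5 against WT replicates 1, 2 and 3 with no hormone given, called ovx here. All 18 libraries came from cross sections of uterus taken at 12 weeks of age from mice of a mixed 129Sv X C57BL/6 background. In both groups the ovaries were taken out at 4 weeks, and the E2 mice then carried a pellet of 0.5 mg of 17β-estradiol, made to release over 90 days, for 8 weeks. The other 12 libraries are WT mice with their ovaries in place and mice lacking Tsc2 in the uterus in the same 3 hormone states, with 3 libraries per group. The labels name no engineered allele for the WT mice, which does not show that they carried none. The driver of the Tsc2 deletion was not given in the sources used here. Each group stands for a steady state after weeks of treatment or of hormone loss, in whole tissue.

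Estradiol acts through estrogen receptors, ligand-activated transcription factors found in the epithelium, stroma and muscle of the uterus. In rodents it makes the uterine lining grow and secrete, and part of the epithelial growth response is relayed by factors from the stroma. Progesterone, which was not given here, opposes many of these effects through its own receptor and through an Indian hedgehog signal from epithelium to stroma.

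Levels are FPKM as the authors deposited them, that is, fragments scaled to gene length and to the mapped reads of the library. The FPKM of a library summed to 224169, 275923 and 275591 in ovx replicates 1, 2 and 3 and to 388538, 591668 and 404303 in E2 replicates 1, 2 and 5. A single symbol, LOC236598, held 26.6% of all FPKM in E2 replicate 2, where it stood at 157544 FPKM. Pearson's r across genes, which are not independent replicates, was 0.974 to 0.986 between ovx libraries, 0.946 to 0.961 between E2 libraries and 0.735 to 0.842 between the groups. Shared steps among the lowest FPKM values put ovx replicates 1 and 3 with E2 replicate 5 in one set of libraries, named batch 3, and ovx replicate 2 with E2 replicates 1 and 2 in another, named batch 4. Hoxa10, Esr1 and Pgr, genes typical of uterus, were detected in all 6 libraries. Absolute read depth is unknown. The shared steps give an estimate of relative depth within each batch. Against ovx replicate 1 it was 0.623 for ovx replicate 3 and 0.443 for E2 replicate 5. Against ovx replicate 2 it was 0.686 and 0.47 for E2 replicates 1 and 2, so E2 libraries were the shallower in both batches. In bulk tissue a change in the number of cells of a type cannot be told apart from a change in RNA per cell.

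Of 25791 genes in the table, 13898 reached 1 FPKM in at least 3 of the 18 libraries and were tested as log2(FPKM + 1), with changes given on that scale as E2 minus ovx. At an adjusted p under 0.05, 4484 genes (32.3%) rose and 2115 (15.2%) fell, 6599 (47.5%) in all. The shares of 32.3% and 15.2% are the background for every count of list members below. The median change over all tested genes was 0.24. On the log2(FPKM + 1) scale 2676 called genes rose and 852 fell by at least 1, called 2-fold here. By at least 3, called 8-fold, 293 rose and 19 fell. These counts depend on the value added to FPKM: with 0.1 in place of 1, 3459 rose and 1532 fell by at least 2-fold. The 3 libraries of each group did not overlap at 9275 genes (66.7%), of which 6043 (43.5%) were higher and 3232 (23.3%) lower in E2. The direction varied with the level of the gene. Genes averaging 20 to 100 FPKM were called higher in 64.2% of cases and lower in 3.49%, while those under 1 FPKM were called higher in 9.97% and lower in 21.9%. Above 100 FPKM the shares were 34.9% and 1.86%, so they did not follow the level throughout.

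The division between rising and falling genes moved with the scaling of the libraries. Of the genes called, 67.9% were higher on the deposited scale, 50.9% with median-ratio factors, 43.6% with quantile normalization and 35.2% after rescaling to a common total without LOC236598, and these scalings moved the median over all tested genes to 0.01, −0.05 and −0.21. The balance of changes of at least 2-fold moved too, from 2676 higher and 852 lower to 1887 and 1375 with median-ratio factors, 1512 and 1651 with quantile normalization and 1325 and 2002 after that rescaling. The median change over all tested genes was 0.424 within batch 3 and 0.118 within batch 4. In each of these batches 1 group has a single library, E2 replicate 5 in batch 3 and ovx replicate 2 in batch 4. That library is assumed to vary like the other groups.

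**Figure D1:**
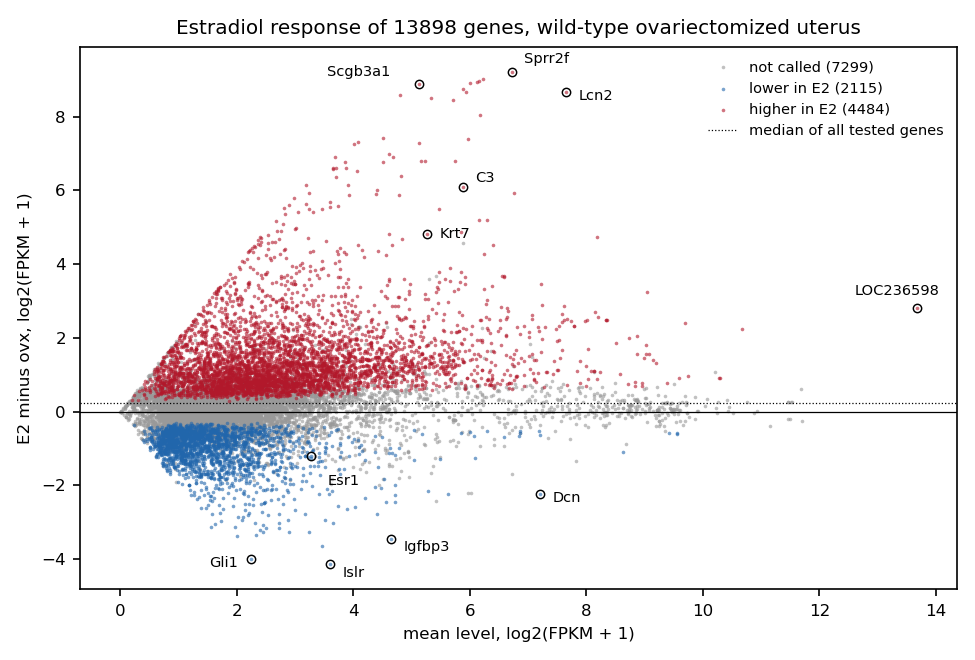
Change with E2 (vertical axis, E2 minus ovx in log2(FPKM + 1)) against the mean level of each of 13898 tested genes (horizontal axis, log2(FPKM + 1)). Red and blue points are genes called higher and lower at an adjusted p under 0.05, grey points were not called, and the dotted line is the median of all tested genes; the rising genes reach above 9 log2 units and the falling genes about −4.

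The small proline-rich proteins of the Sprr2 family were nearly silent without hormone and abundant in the E2-treated uterus. They are precursors of the cornified envelope of squamous epithelia and are known as estrogen-induced genes of the mouse uterus. All 11 tested members rose, against 32.3% of all tested genes, with a median change of 8.76. The family shares much sequence, so reads may have been divided unevenly among its copies. The upstream sequences of 3 members are shown because the members moved together, in each case the 250 bases before the transcription start on the plus strand of GRCm38.p6, from RefSeq, with capitals marking the AP-1 motif TGANTCA searched on both strands. They lie at chr3:92364937-92365186 for Sprr2f, chr3:92351893-92352142 for Sprr2e and chr3:92316455-92316704 for Sprr2b.
Sprr2f: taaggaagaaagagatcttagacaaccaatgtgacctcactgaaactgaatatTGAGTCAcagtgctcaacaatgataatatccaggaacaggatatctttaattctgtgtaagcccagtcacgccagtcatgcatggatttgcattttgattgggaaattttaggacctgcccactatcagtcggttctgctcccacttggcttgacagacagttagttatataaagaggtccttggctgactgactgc
Sprr2e: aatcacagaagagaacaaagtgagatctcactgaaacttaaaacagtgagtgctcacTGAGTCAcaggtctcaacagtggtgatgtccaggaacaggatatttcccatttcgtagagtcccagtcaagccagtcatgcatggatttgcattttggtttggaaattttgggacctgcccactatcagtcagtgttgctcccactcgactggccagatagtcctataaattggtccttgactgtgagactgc
Sprr2b: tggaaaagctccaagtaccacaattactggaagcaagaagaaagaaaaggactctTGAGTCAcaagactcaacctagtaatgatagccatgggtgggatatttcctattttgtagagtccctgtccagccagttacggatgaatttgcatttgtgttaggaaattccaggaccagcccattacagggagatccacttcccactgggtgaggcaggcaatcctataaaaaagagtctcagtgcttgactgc

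The AP-1 match began 197, 193 and 195 bases before the start in these 3 promoters. It was found in 7 of the 9 Sprr2 genes with a promoter in the RefSeq table. The share was 5.86% over the 9977 tested genes matched there (71.8% of those tested) and 6.77% among genes called higher. It was found in none of 16 luminal secretory products and in 6 of 19 interferon response genes. The 3 windows shown lie near each other on chromosome 3 and share stretches of sequence, so the Sprr2 windows are not independent. A match describes the letters of a window and not a bound site. The consensus estrogen response element, taken as GGTCA and TGACC with 3 bases between them, was found in 1 of these 9977 windows, that of Cd300c, and in none of the 9 Sprr2 windows.

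Sprr2f stood at 1.34, 2.36 and 9.20 FPKM in the ovx libraries and at 1712, 2559 and 3875 FPKM in the E2 libraries. Every E2 library was above every ovx library by orders of magnitude, and ovx replicate 3 was the highest of its group. The change was 9.22 ± 1.40 (SE; adjusted p = 0.000212, limma with Benjamini-Hochberg adjustment, n = 3 per group). Sprr2e stood at 0.872, 1.69 and 6.04 FPKM in ovx and at 1096, 1607 and 2819 FPKM in E2 (9.02 ± 1.32, adjusted p = 0.000181). Sprr2b went from 0.831, 1.35 and 5.41 FPKM to 636, 813 and 3575 FPKM (8.67 ± 1.42). The groups were fully apart for both, and E2 replicate 5 was the highest library each time. Sprr2h (8.97), Sprr2d (8.95), Sprr2i (8.91), Sprr2g (8.76) and Sprr2a3 (8.45) changed by similar amounts, as did the pseudogene Sprr2j-ps (8.50), which is not counted among the 11. The smallest changes were those of Sprr2a (6.60), Sprr2a2 (6.58) and Sprr2k (5.37). Over the family the summed level was 7.19, 12.8 and 47.9 FPKM in ovx and 7764, 11023 and 24569 FPKM in E2. All 11 members were called when any single library was left out, and their median was 9.56 within batch 3 and 8.54 within batch 4.

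Secreted and apical proteins of the uterine epithelium were also among the strongest rises. Of 18 tested luminal secretory products, 12 rose and none fell, with a median of 3.96. Scgb3a1, a secretoglobin, stood at 0.174, 0.264 and 1.83 FPKM in ovx and at 301, 981 and 1472 FPKM in E2 (8.88 ± 0.97, adjusted p = 3.35e-05). Lcn2, a lipocalin that binds bacterial siderophores, went from 5.93, 6.36 and 18.3 FPKM to 3663, 3679 and 4904 FPKM (8.67, adjusted p = 0.000445). The E2 libraries were close together for Lcn2 and widely spread for Scgb3a1, and neither gene overlapped between groups. Pglyrp1, which binds bacterial peptidoglycan, rose by 8.04 and Abp1, a diamine oxidase, by 8.59.

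C3, the central complement protein and an estrogen-induced secretion of the uterus, stood at 5.44, 4.91 and 8.52 FPKM in ovx and at 450, 402 and 646 FPKM in E2 (6.10 ± 0.99, adjusted p = 0.000317). Pigr, which carries IgA across epithelia, went from 1.96, 1.20 and 3.52 FPKM to 223, 254 and 305 FPKM (6.39 ± 1.13). Muc1, a cell surface mucin, stood at 2.49, 3.94 and 4.56 FPKM in ovx and at 117, 105 and 173 FPKM in E2 (adjusted p = 0.000684). All 3 genes held narrow ranges within each group with a wide gap between the groups. Clu, a secreted chaperone, rose by 4.87, and Sftpd, a collectin that binds microbes, rose by 5.91.

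Ltf, the iron-binding lactoferrin and a classical estrogen-induced secretion, could not be read from the table. It was listed at 4.63, 2.93 and 10.3 FPKM in ovx and at 0, 2103 and 0 FPKM in E2, and an exact 0 in such a table can be a failed estimate. Of all tested genes, 10 in ovx and 19 in E2 were listed at 0 in a library beside at least 5 FPKM in another of its group.

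**Figure D2:**
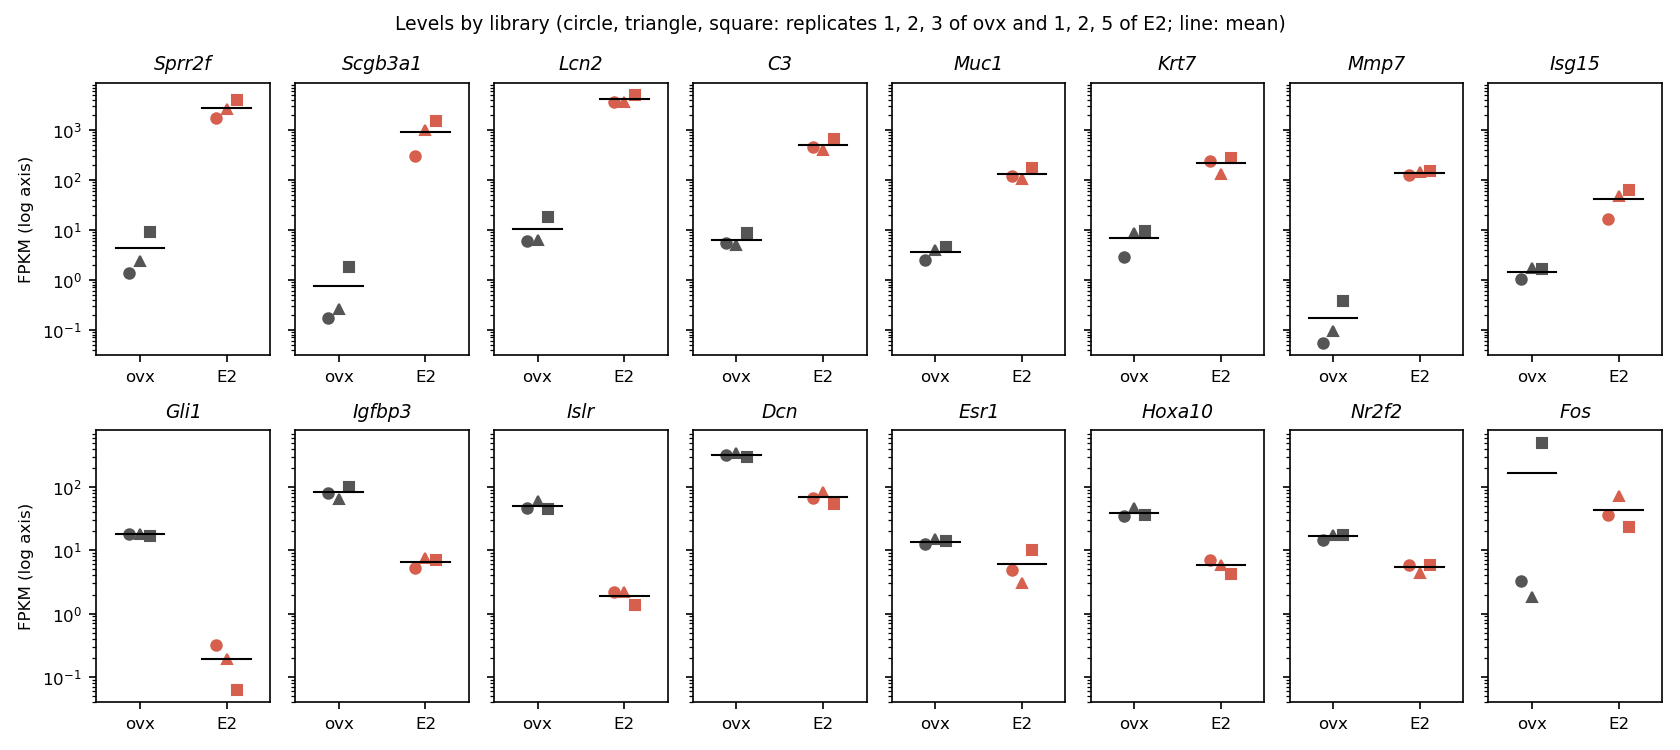
FPKM in each library (log axis) of 16 genes in the ovx (grey) and E2 (red) groups, with a circle, triangle and square for replicates 1, 2 and 3 of ovx and 1, 2 and 5 of E2 and a line at the mean. The upper genes and the falling genes of the lower row do not overlap between groups, while Fos is spread by ovx replicate 3 at 505 FPKM.

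Most epithelial markers rose with E2. Of 24 tested markers of luminal and glandular epithelium 20 rose and none fell, with a median of 2.37. Krt7, a keratin of simple epithelia, stood at 2.86, 8.43 and 9.49 FPKM in ovx and at 242, 130 and 270 FPKM in E2 (4.82 ± 0.76, adjusted p = 0.000252). Epcam, an epithelial adhesion molecule, went from 9.38, 13.3 and 11.9 FPKM to 93.0, 95.4 and 163 FPKM (3.20 ± 0.69). Each was several times higher in the lowest E2 library than in the highest ovx library, and ovx replicate 1 was the lowest for both. Elf3, an epithelial transcription factor (4.69), Prom1, an apical membrane protein (4.33), the claudin Cldn7 (3.78) and E-cadherin, Cdh1 (2.70), also rose. Cldn3, Klf5, Wfdc2 and Foxa2 were not called. Of 23 tested tight junction and adhesion genes 14 rose and 4 fell, with a median of 1.1, and F11r, a junction protein left out of that list, rose by 1.84. The claudins Cldn1 (−2.20) and Cldn5 (−2.14), of which Cldn5 is typical of endothelium, and the scaffold Tjp1 (−0.88) were among those that fell. The summed level of the markers was 203, 348 and 341 FPKM in ovx and 1867, 1462 and 2258 FPKM in E2. The median was 2.79 within batch 3, where 18 markers were called, and 2.05 within batch 4, where 1 was called.

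Markers of squamous epithelium were higher as well, with a limit set by related keratins. Of 30 listed markers 16 were tested, of which 15 rose and none fell, with a median of 3.07. Ly6d, a surface protein of squamous and other cells, stood at 1.46, 0.615 and 0.795 FPKM in ovx and at 36.0, 140 and 151 FPKM in E2 (5.59 ± 0.77). Sprr1a (5.10), Sprr1b (4.78) and Sfn (3.76), all known from squamous cells, rose too. The keratins Krt13, Krt14, Krt15, Krt16 and Krt17 rose by 2.81 to 3.17, but their ratio to Krt19, a keratin of simple epithelia, was nearly constant over the 6 libraries (0.184 to 0.201 for Krt13 and 0.131 to 0.149 for Krt14), while that of Krt18 ran from 0.402 to 1.30. Related keratins can share reads, so the levels of these 5 are uncertain. Trp63, the transcription factor that defines basal and squamous cells, was too low to be tested, at 0.0932, 0.150 and 0.128 FPKM in ovx and 0.00986, 0.0203 and 0.0179 FPKM in E2, and the late markers Krt1 and Ivl stayed below 0.1 FPKM in all 6 libraries. Lor, another late marker that was too low to be tested, stood at 0.227, 0.328 and 0.322 FPKM in ovx and at 2.37, 0.368 and 1.45 FPKM in E2.

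**Figure D3:**
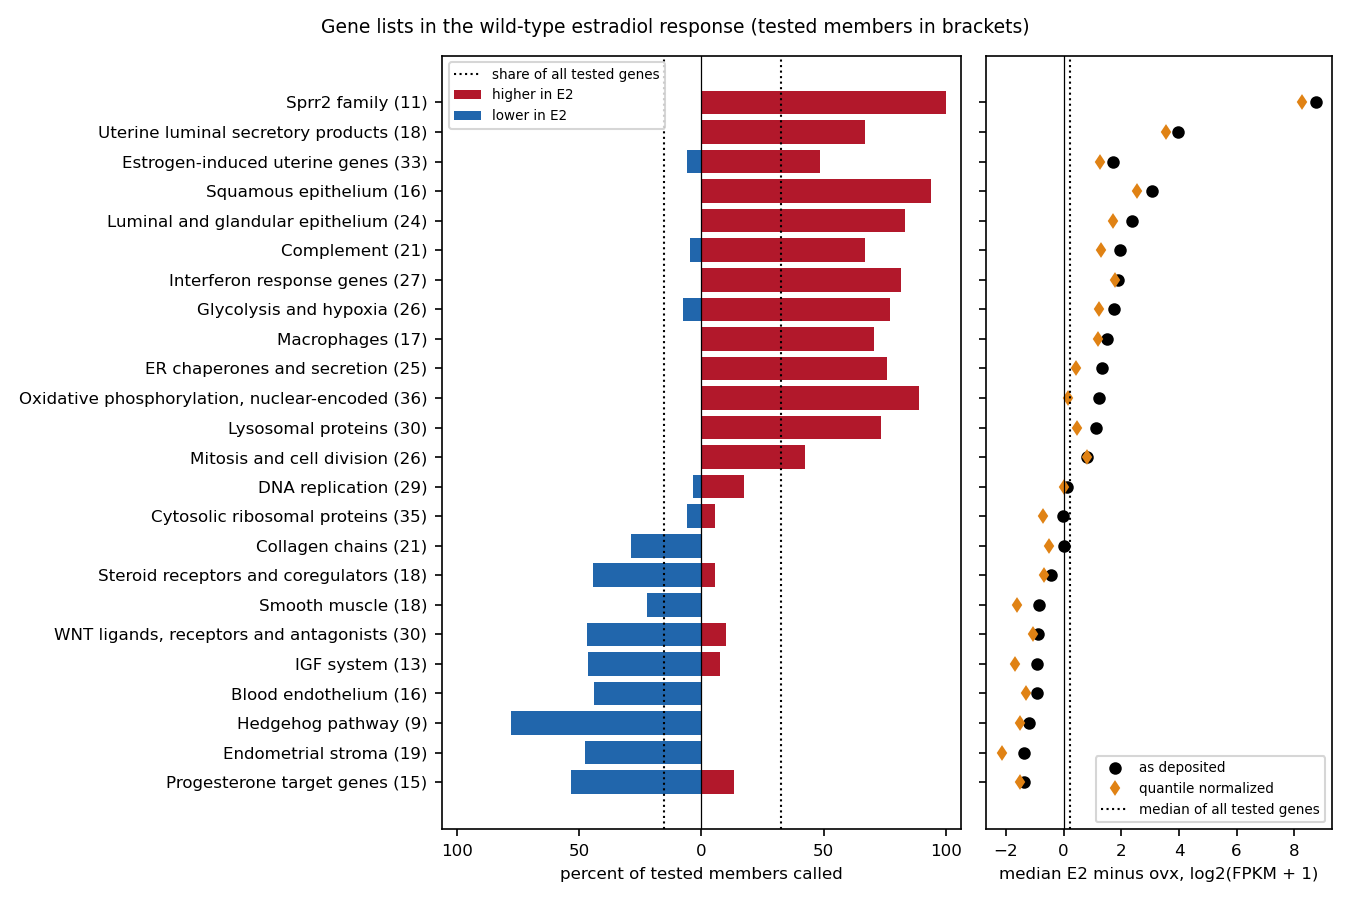
Share of tested members called higher (red, right) or lower (blue, left) in E2 for 24 gene lists, with dotted lines at the shares over all tested genes, 32.3% and 15.2%. The right panel gives each list's median change on the deposited scale (circles) and with quantile normalization (diamonds), from the Sprr2 family at 8.76 down to progesterone target genes at −1.39.

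More steroid receptor genes fell than rose. Of 18 tested steroid receptors and coregulators 1 rose and 8 fell, against 15.2% falling among all tested genes, with a median of −0.45. Esr1, the main estrogen receptor of the uterus, stood at 12.4, 15.1 and 13.8 FPKM in ovx and at 4.95, 2.99 and 10.0 FPKM in E2, a fall of 1.20 ± 0.33 (adjusted p = 0.00786). Each E2 library was below each ovx library, with E2 replicate 5 the nearest to them, and within batch 3, where that library is the only E2 library and the spread comes from all groups, the change was −0.35 (adjusted p = 0.528). Esr2, the other estrogen receptor, was too low to be tested, at up to 0.246 FPKM. Pgr, the progesterone receptor, stood at 5.23, 7.88 and 9.22 FPKM in ovx and at 11.0, 6.83 and 24.3 FPKM in E2. These ranges overlapped and the change of 0.69 ± 0.41 did not pass the test (adjusted p = 0.174), with a sign that turned under quantile normalization. Nr2f2, a nuclear receptor of the stroma, fell by 1.46 from 14.8, 17.4 and 17.5 FPKM to 5.86, 4.4 and 5.93 FPKM, with the groups well apart. Nr3c1, the glucocorticoid receptor (−1.27), and Nr2f1, a relative of Nr2f2 (−1.39), also fell, and Fkbp4, a chaperone of steroid receptors, rose by 1.41, a call that was lost with quantile normalization (adjusted p = 0.449) and after rescaling without LOC236598 (adjusted p = 0.112).

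Genes known to be induced by estrogen in the uterus rose more often than they fell. Of 33 tested 16 rose (48.5%, against 32.3% of all tested genes), 2 fell and 15 were not called. The median was 1.70. Padi2, a peptidylarginine deiminase, went from 0.456, 0.863 and 0.958 FPKM to 148, 113 and 241 FPKM (6.52 ± 1.07). Greb1, a cofactor of the estrogen receptor, stood at 0.980, 0.982 and 0.997 FPKM in ovx and at 7.83, 4.75 and 10.5 FPKM in E2 (2.07 ± 0.36, adjusted p = 0.000437). Both were apart between groups, and the ovx libraries were almost equal for Greb1. The related deiminases Padi1 (5.89) and Padi4 (4.60), the water channel Aqp5 (5.63), the gap junction protein Gjb2 (3.95), the activin subunit Inhbb (3.02) and the cytokine Lif (2.19) rose. Vegfa, the angiogenic growth factor, fell from 17.0, 17.1 and 15.6 FPKM to 6.22, 6.23 and 5.45 FPKM (adjusted p = 0.00377). Myc, an early growth gene, fell by 1.21 (adjusted p = 0.0201), a call lost without ovx replicate 3 (adjusted p = 0.0971). Igf1, a growth factor of the stroma, stood at 2.12, 3.10 and 2.91 FPKM in ovx and at 2.51, 1.88 and 1.22 FPKM in E2 and did not pass the test (−0.38 ± 0.46, adjusted p = 0.511).

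Progesterone target genes fell more than they rose: of 15 tested, 8 fell and 2 rose, with a median of −1.39. Il17rb, a cytokine receptor, stood at 6.32, 12.9 and 14.2 FPKM in ovx and at 1.22, 0.310 and 0.406 FPKM in E2. Hoxa10, a homeobox gene needed for implantation, went from 35.5, 46.2 and 36.1 FPKM to 7.13, 5.93 and 4.21 FPKM (−2.59 ± 0.84, adjusted p = 0.0201). Hand2, a stromal transcription factor, went from 8.69, 13.7 and 10.0 FPKM to 2.17, 1.95 and 1.07 FPKM. No library overlapped between groups at these 3 genes. The Hoxa10 call was lost without ovx replicate 2 (adjusted p = 0.0566) or E2 replicate 5 (adjusted p = 0.0641), as was that of Hand2 (0.0694 and 0.0747), and the count of falling members was then 4 in each case. Alox15, a lipoxygenase (4.38), and Irg1, an enzyme that makes itaconate (2.71), rose. This list shares members with others below: Gli1 is also a Hedgehog gene here, and Hoxa10 and Hand2 are also stromal markers. The counts of falling members in these lists are therefore not separate results.

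Hedgehog signalling genes fell at most steps of the pathway. Of 9 tested, 7 fell (77.8%, against 15.2% of all tested genes) and none rose, with a median of −1.21. Gli1, the transcription factor that reports pathway activity, stood at 18.2, 18.2 and 17.1 FPKM in ovx and at 0.320, 0.191 and 0.0617 FPKM in E2 (−3.99 ± 0.59, adjusted p = 0.000184). Ptch1, the receptor and a target, went from 3.08, 4.37 and 3.92 FPKM to 0.286, 0.235 and 0.772 FPKM (−1.75 ± 0.30). The ovx libraries were almost equal for Gli1, and both genes were apart between groups. The signal transducer Smo (−1.24), the transcription factor Gli2 (−1.21), the coreceptors Cdon (−1.18) and Boc (−0.63) and the inhibitor Sufu (−0.73) fell. The ligand Ihh was at 1.43, 2.35 and 1.75 FPKM in ovx and 0.162, 0.0244 and 0.0440 FPKM in E2, which did not pass the test (adjusted p = 0.0717). The median was −1.31 within batch 3 and −1.27 within batch 4.

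WNT genes changed in both directions, mostly downward. Of 30 tested 3 rose (10%, against 32.3% of all tested genes) and 14 fell (46.7%, against 15.2%), with a median of −0.87. Wnt7b, an epithelial ligand, stood at 0.222, 0.607 and 0.858 FPKM in ovx and at 9.91, 6.84 and 17.0 FPKM in E2 (2.91 ± 0.46). Wnt4, another ligand, rose by 1.59, a call lost after rescaling without LOC236598 (adjusted p = 0.063). Axin2, a target and inhibitor of the pathway, went from 5.00, 6.14 and 5.77 FPKM to 0.816, 0.754 and 1.02 FPKM (−1.83 ± 0.36, adjusted p = 0.00105). Wnt7b and Axin2 each kept the groups apart. The receptors Fzd10 (−2.18) and Fzd2 (−1.48) fell.

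Of 13 tested genes of the IGF system 6 fell (46.2%, against 15.2% of all tested genes) and 1 rose, with a median of −0.92. Igfbp3, the main carrier of IGFs in blood, stood at 81.6, 65.5 and 101 FPKM in ovx and at 5.23, 7.51 and 7.13 FPKM in E2 (−3.45 ± 0.74, adjusted p = 0.00182). Igfbp5, another carrier, went from 30.3, 39.3 and 45.6 FPKM to 4.82, 1.43 and 1.16 FPKM (−3.64 ± 0.65). No library crossed over for either carrier. The ligand Igf2 (−1.78) and the adapter Irs2 (−1.59) fell. The rise of the carrier Igfbp2 (2.47) was lost when any of 4 libraries was left out (ovx replicates 1 and 3, E2 replicates 1 and 2).

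On the log2(FPKM + 1) scale the largest fall among named genes of at least 5 FPKM in either group was that of Islr, a secreted protein of fibroblasts. It stood at 45.9, 60.8 and 45.4 FPKM in ovx and 2.19, 2.19 and 1.38 FPKM in E2 (−4.15 ± 0.83, adjusted p = 0.00117). Tnxb, a matrix tenascin, went from 15.2, 18.2 and 12.0 FPKM to 1.30, 0.811 and 0.603 FPKM (−3.08 ± 0.49). Islr and Tnxb were each far lower in every E2 library than in any ovx library. The ranking depends on the value added to FPKM: the ratio of the E2 mean to the ovx mean was 0.0379 for Islr and 0.0107 for Gli1. Others of the 15 largest were Gdf10, a BMP family ligand (−3.34), Prrt2 (−3.38), the nucleoside transporter Slc29a1 (−3.28), Arl4d (−3.26), Mterfd2 (−3.26), Rasd2 (−3.20), the oxidase Fmo1 (−3.15), Wfdc1 (−3.15) and the proteoglycan Spock2 (−3.13). The miRNA gene Mir7-1 was at 7.70, 5.93 and 9.84 FPKM in ovx and listed at 0 in all 3 E2 libraries, so no fold is given.

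Markers of stroma and endothelium were lower in E2. Of 19 tested markers of endometrial stroma 9 fell (47.4%, against 15.2% of all tested genes) and none rose, with a median of −1.36. Their summed level was 617, 727 and 620 FPKM in ovx and 254, 280 and 210 FPKM in E2. Dcn, the proteoglycan decorin, stood at 321, 342 and 297 FPKM in ovx and at 67.9, 84.0 and 53.9 FPKM in E2 (−2.23 ± 0.71, adjusted p = 0.0181). The groups were well apart, and the call was lost without E2 replicate 5 (adjusted p = 0.06). Wt1, a stromal transcription factor, fell by 2.04, while Col1a1, Col3a1 and Vim were not called. Only 2 stromal markers were called without E2 replicate 5, 4 without ovx replicate 2 and 5 without ovx replicate 1. Of 16 endothelial markers 7 fell (43.8%) and none rose, with a median of −0.93, and 3 to 5 were called with a library left out. Kdr, the main VEGF receptor of endothelium, fell by 0.90. The summed level of endothelial markers was 79.4, 94.5 and 88.5 FPKM in ovx and 43.0, 37.4 and 38.4 FPKM in E2.

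Some smooth muscle genes fell. Of 18 tested 4 fell (22.2%, against 15.2% of all tested genes) and none rose. With a library left out 1 to 4 fell, and with quantile normalization 10 fell. In all, 11 were lower in every E2 library than in any ovx library, against 23.3% of all tested genes. The median of −0.87 was −2.01 within batch 3 and −0.42 within batch 4. Acta2, smooth muscle actin, stood at 240, 263 and 321 FPKM in ovx and at 253, 246 and 68.1 FPKM in E2, and its change did not pass the test (adjusted p = 0.381). E2 replicate 5 was low and the other E2 libraries lay within the ovx range, a pattern also seen in the summed level of 1130, 1229 and 1360 FPKM in ovx and 1344, 1194 and 401 FPKM in E2. Of 11 tested contraction-associated genes 3 rose (27.3%, against 32.3% of all tested genes) and 4 fell (36.4%, against 15.2%). The median was −0.57. Oxtr, the oxytocin receptor, rose from 0.934, 0.936 and 0.965 FPKM to 13.0, 13.9 and 8.13 FPKM (2.67 ± 0.35), and the gap junction protein Gja1 rose by 1.69, a call lost after rescaling without LOC236598 (adjusted p = 0.0529). The calcium pump Atp2b4 fell (−2.20).

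**Figure D4:**
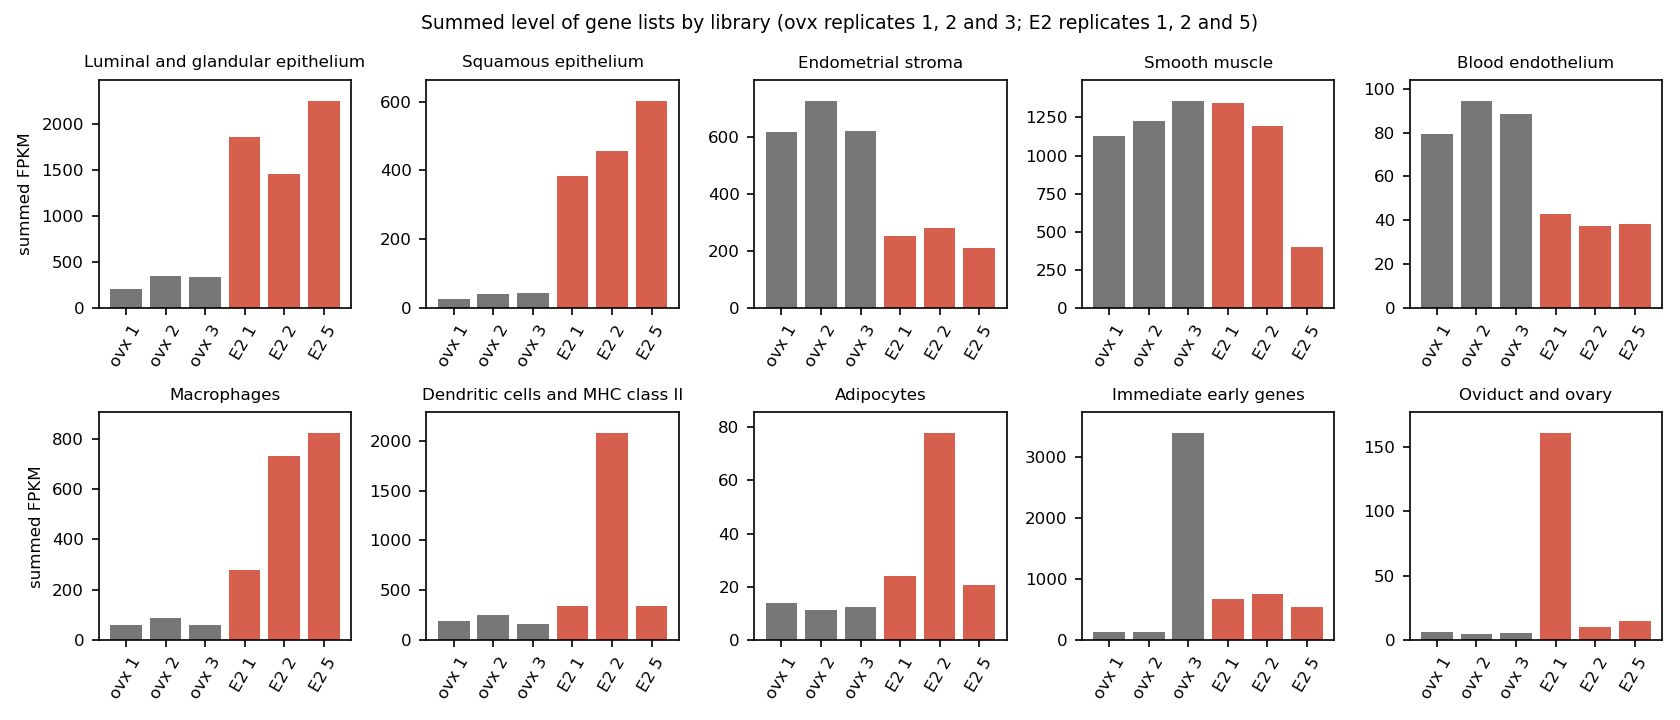
Summed FPKM of the listed genes in each of the 6 libraries (grey, ovx replicates 1, 2 and 3; red, E2 replicates 1, 2 and 5) for 10 lists, each panel with its own axis from 0. Epithelial and macrophage markers are higher and stromal and endothelial markers lower in every E2 library, while single libraries stand out for immediate early genes (3388 FPKM in ovx replicate 3) and MHC class II (2079 FPKM in E2 replicate 2).

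Matrix genes changed in both directions. Of 40 tested matrix glycoproteins and proteoglycans 11 fell (27.5%, against 15.2% of all tested genes) and 5 rose (12.5%, against 32.3%). Of 21 collagen chains 6 fell (28.6%) and none rose. The medians were −0.80 and 0.02. Spp1, the adhesive protein osteopontin, stood at 0.237, 0.217 and 0.362 FPKM in ovx and at 40.9, 20.1 and 175 FPKM in E2 (5.40 ± 0.84). Mmp7, a matrix protease of epithelia, went from 0.0547, 0.0930 and 0.373 FPKM to 125, 143 and 152 FPKM (6.91 ± 0.87, adjusted p = 8.2e-05). The E2 libraries were close together for Mmp7 and spread for Spp1, and all stood above ovx. Timp3, an inhibitor of such proteases (−2.06), Efemp1, an elastic fibre protein (−2.95), and the matrilin Matn2 fell.

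Interferon response genes rose with E2: of 27 tested 22 rose and none fell, with a median of 1.90. Isg15, a ubiquitin-like protein, stood at 1.02, 1.73 and 1.62 FPKM in ovx and at 16.7, 46.6 and 61.3 FPKM in E2 (3.94 ± 0.58, adjusted p = 0.000184). Oas1a, a sensor of double-stranded RNA, went from 0.931, 1.43 and 1.16 FPKM to 16.1, 26.1 and 41.6 FPKM (3.64 ± 0.51, adjusted p = 0.000145). E2 replicate 1 was the lowest of its group for both and still well above the ovx libraries. Irf7, a regulator of interferon genes (3.93), Oas2 (3.46) and Bst2, which tethers virus particles (3.33), also rose, and Ifit2, Rsad2, Xaf1, Gbp2 and Cmpk2 were not called. The upstream sequences of Isg15 and Oas1a are shown because the members moved together, as the 250 bases before the start on the minus strand at chr4:156200819-156201068 and chr5:120907526-120907775 of GRCm38.p6, from RefSeq, with capitals marking matches of the interferon-stimulated response element, taken as TTTC, 2 bases of any kind and TTTC again, on either strand.
Isg15: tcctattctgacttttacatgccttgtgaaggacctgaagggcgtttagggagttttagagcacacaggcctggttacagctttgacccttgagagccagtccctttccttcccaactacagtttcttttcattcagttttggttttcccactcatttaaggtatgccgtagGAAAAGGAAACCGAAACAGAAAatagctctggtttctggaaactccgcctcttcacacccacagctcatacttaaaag
Oas1a: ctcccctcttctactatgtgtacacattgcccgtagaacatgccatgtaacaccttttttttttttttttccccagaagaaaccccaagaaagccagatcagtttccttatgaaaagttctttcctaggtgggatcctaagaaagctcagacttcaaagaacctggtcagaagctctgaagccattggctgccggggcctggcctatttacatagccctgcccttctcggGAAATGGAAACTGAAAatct

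The capitals hold 3 overlapping matches in Isg15 and 2 in Oas1a. The motif was found in 10 of the 19 interferon response genes with a promoter in the table and in 3.31% of all 9977 windows. The median change of the list was 2.52 within batch 3 and 1.68 within batch 4, and 17 to 24 members were called with a library left out.

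Many complement genes and some chemokines rose. Of 21 tested complement genes 14 rose and 1 fell, with a median of 1.95, and Cfb, a protease of the alternative pathway, stood at 1.14, 1.13 and 1.79 FPKM in ovx and at 174, 252 and 495 FPKM in E2 (adjusted p = 3.64e-05). The inhibitory protease Cfi rose by 4.90. Of 28 chemokines 13 rose, against 32.3% of all tested genes, and 2 fell, with a median of 1.33, and 8 rose without ovx replicate 1 or without E2 replicate 2. Cxcl17, a mucosal chemokine, went from 2.34, 7.51 and 4.2 FPKM to 140, 98.9 and 122 FPKM (4.51 ± 0.90). Cfb and Cxcl17 showed no overlap, with E2 replicate 5 the highest for Cfb. Cxcl16 (2.65), the cytokine Il1b (3.28), its antagonist Il1rn (3.20) and the granulocyte growth factor Csf3 (2.74) rose, and the chemokine Ccl27a fell (−1.75).

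Among leukocyte markers those of macrophages rose most often, with 12 of 17 tested called higher and none called lower and a median of 1.49. Without overlap between the libraries of the groups, 14 were higher and 2 lower in E2, against 43.5% and 23.3% of all tested genes. Cd14, a receptor for bacterial lipopolysaccharide, stood at 5.66, 4.89 and 6.39 FPKM in ovx and at 135, 341 and 561 FPKM in E2 (5.49 ± 0.58, adjusted p = 2.72e-05). E2 replicate 1 was the lowest of its group, far above the ovx libraries, which were close together. The integrin Itgam (4.15), the complement subunit C1qb (2.32) and the lysosomal protein Cd68 (2.07) rose, while Emr1 (1.01, adjusted p = 0.114) and Csf1r (1.14, adjusted p = 0.0503), which define macrophages, were not called. The C1qb call was lost with quantile normalization (adjusted p = 0.0636) and after rescaling without LOC236598 (adjusted p = 0.0548). Cd163, a macrophage receptor too low to be tested, was lower in E2. It stood at 0.239, 0.328 and 0.207 FPKM in ovx and at 0.0243, 0.0781 and 0.017 FPKM in E2. Between 8 and 13 markers were called with a library left out, 8 of them without E2 replicate 2. Of 19 neutrophil markers 5 rose and none fell, a share of 26.3% against 32.3% of all tested genes. Yet 15 of the 19 were higher in every E2 library than in any ovx library, against 43.5% of all tested genes. Ly6g was among the 5 that rose, and its call held in all 21 alternative settings. S100a9, a calcium-binding protein of neutrophils and inflamed epithelia, went from 0.581, 0.335 and 1.71 FPKM to 39.8, 142 and 339 FPKM (adjusted p = 0.00107). The groups were apart, with E2 replicate 1 the lowest of the treated libraries. The granule proteins Camp and Ngp, made by neutrophils as they mature, reached at most 0.844 and 1.07 FPKM in E2. Lcn2 and Ltf belong to this list as well as to the secretory one.

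Genes of energy metabolism and of the secretory pathway rose together. Of 36 tested nuclear-encoded subunits of oxidative phosphorylation 32 rose and none fell, with a median of 1.22. Cox5a, a subunit of cytochrome c oxidase, stood at 6.74, 10.7 and 10.8 FPKM in ovx and at 86.7, 104 and 88.8 FPKM in E2 (3.20 ± 0.43). Of 26 glycolysis and hypoxia genes 20 rose and 2 fell, with a median of 1.76. Ldha, lactate dehydrogenase, went from 15.9, 29.5 and 25.7 FPKM to 196, 197 and 344 FPKM (3.31 ± 0.46). All E2 libraries exceeded all ovx libraries for both. The lactate exporter Slc16a3 (3.30), the glycolytic kinase Pgk1 (3.26) and the oxygen sensor Egln3 (3.15) rose.

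Of 25 genes of endoplasmic reticulum chaperones and secretion 19 rose and none fell, with a median of 1.33, among them the translocon subunit Sec61b (2.32), Manf (2.16) and the disulfide isomerase Pdia3 (1.89). Of 30 lysosomal proteins 22 rose and none fell, with a median of 1.12, and the cathepsins Ctsh (adjusted p = 2.06e-05), Ctss (2.68) and Ctsb (2.48) were among them. With quantile normalization the counts were 7 higher and 1 lower for oxidative phosphorylation, with a median of 0.17, 7 and 1 for chaperones and secretion, with a median of 0.42, and 13 and 1 for lysosomal proteins. Of 25 sterol and fatty acid synthesis genes 11 rose (44%, against 32.3% of all tested genes) and none fell, with a median of 0.74. Fdps, which makes farnesyl diphosphate, was among those that rose (2.24). Arg1, arginase, stood at 0.334, 0.155 and 0.470 FPKM in ovx and at 181, 92.2 and 123 FPKM in E2 (6.61 ± 1.49). Those libraries did not overlap. The creatine kinase Ckmt1 (4.45), the polyamine enzyme Sat1 and Rdh10, which makes retinal (4.37), rose. Of 35 cytosolic ribosomal proteins 2 rose and 2 fell, with a median of −0.03, and with quantile normalization 29 fell.

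Some mitosis genes rose, at low levels. Of 26 tested mitosis genes 11 rose and none fell, with a median of 0.82, and all 26 were higher in every E2 library than in any ovx library, against 43.5% of all tested genes. Their summed level was 7.86, 8.05 and 8.03 FPKM in ovx and 32.4, 27.6 and 50.3 FPKM in E2. Cdk1, the mitotic kinase, stood at 0.198, 0.196 and 0.173 FPKM in ovx and at 1.27, 1.15 and 1.65 FPKM in E2 (0.98 ± 0.32, adjusted p = 0.0195), while Top2a, Mki67 and Ccnb1 were not called. The count of rising members was 2 without E2 replicate 5, 4 without ovx replicate 1 or 2, 5 without ovx replicate 3 and 6 without E2 replicate 1. Of 29 DNA replication genes 5 rose, or 17.2% against 32.3% of all tested genes, and 1 fell, with a median of 0.12. Among inhibitors of cyclin-dependent kinases Cdkn1a rose (1.83) while Cdkn1b (−0.99) and Cdkn1c fell.

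Some genes were set by single libraries. The summed level of 22 tested immediate early genes was 135, 136 and 3388 FPKM in ovx and 676, 753 and 536 FPKM in E2. Fos, a subunit of AP-1, stood at 3.26, 1.83 and 505 FPKM in ovx and at 36.5, 71.6 and 23.4 FPKM in E2, and Egr1, an early transcription factor, at 14.6, 10.1 and 1081 FPKM and at 27.2, 57.5 and 1.80 FPKM. Of this list 3 rose and 1 fell, the median was −0.87 within batch 3 and 1.71 within batch 4, and 6 rose without ovx replicate 3. MHC class II markers summed to 2079 FPKM and adipocyte markers to 77.8 FPKM in E2 replicate 2, against 163 to 346 FPKM and 11.4 to 24.0 FPKM in the other 5 libraries. Ovgp1, a glycoprotein of the oviduct, stood at 1.74, 2.43 and 1.53 FPKM in ovx and at 159, 9.15 and 13.9 FPKM in E2, and its call was lost without E2 replicate 1 (adjusted p = 0.0705). The part of these libraries in the other results was not tested beyond the values without each of them.

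The same treatment in mice lacking Tsc2, which restrains the growth kinase complex mTORC1, gave a different response at 1529 genes (11.0% of those tested), tested as the difference between the genotypes in E2 minus ovx. The Tsc2-null response was the higher at 563 of them and the lower at 966. Tsc2 itself stood at 3.24, 3.49 and 3.17 FPKM in WT ovx and at 2.73, 2.38 and 2.66 FPKM in WT E2 (adjusted p = 0.107), and its mean was 2.90 and 2.15 FPKM in Tsc2-null ovx and E2, where a value over the whole gene does not check a deletion of some exons. Epithelial markers differed at 16 of 24 tested, with a median change of 2.37 in WT and −0.49 in Tsc2-null uteri. These are changes from the ovx libraries of each genotype, whose levels can differ. Cldn7, for example, had a mean of 11.5 FPKM in WT ovx and 35.1 FPKM in Tsc2-null ovx, and of 166 and 69.4 FPKM in E2. Oxidative phosphorylation differed at 10 of 36, interferon response genes at 4 of 27 and macrophage markers at 6 of 17, where the Tsc2-null median of 3.72 was the higher. None of the 11 Sprr2 or 9 Hedgehog genes passed the test of the difference, with medians of 5.96 and −0.74 in Tsc2-null uteri. The count of 1529 ran from 520 to 2383 when a library was left out and was 136 with replicate number as a term. It was 1154 with batch as a term. All 3 Tsc2-null ovx libraries fell in batch 3, and Tsc2-null E2 replicates 1 and 2 fell in batch 4. The WT ovx and WT E2 groups each held libraries of both batches. Part of the difference between genotypes therefore cannot be told apart from batch.

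**Figure D5:**
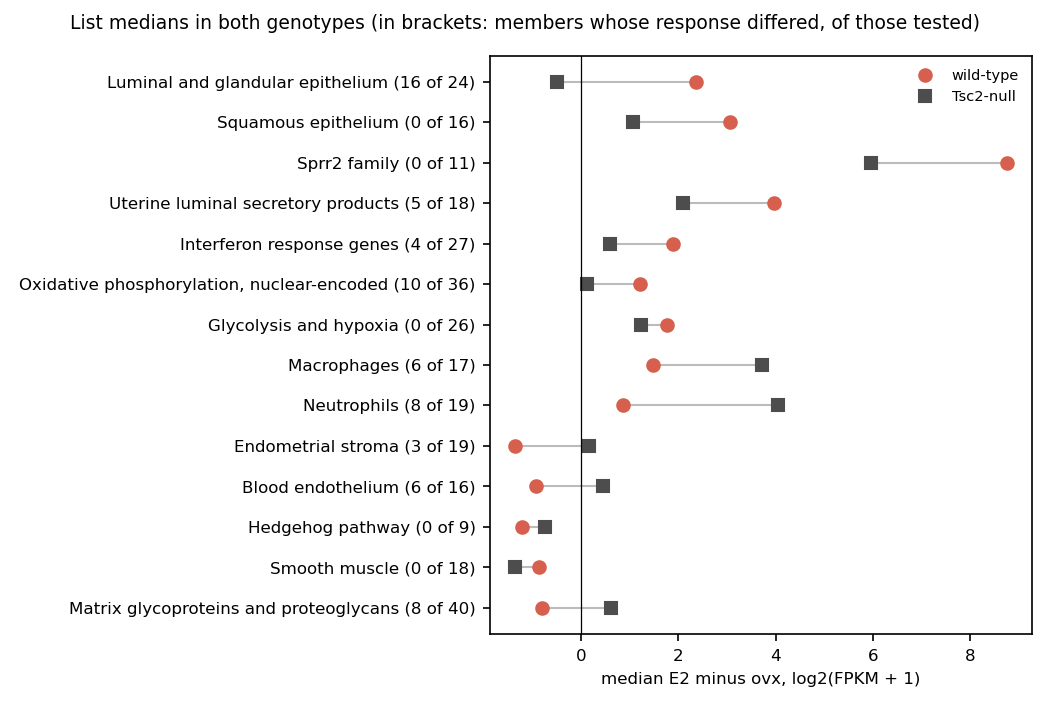
Median change with E2, in log2(FPKM + 1), of 14 gene lists in wild-type (circles) and Tsc2-null (squares) uteri, with the number of members whose response differed between genotypes at an adjusted p under 0.05. Epithelial markers are at 2.37 in wild-type and −0.49 in Tsc2-null uteri, while the Sprr2 family is high in both.

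WT uteri with their ovaries in place share the ovx libraries as their reference, so their values are only set beside those of E2. Their libraries also fell in batches 1 and 2, and the ovx and E2 libraries in batches 3 and 4. The presence of ovaries and the batch therefore cannot be told apart in these values. Sprr2f was 9.22 higher with E2 and 7.31 higher with ovaries, and Gli1 was lower by −3.99 and −3.06. Lcn2 stood at 8.67 and 4.05, Isg15 at 3.94 and 2.62 and Krt7 at 4.82 and 3.72 on the same scale. Scgb3a1 stood at 8.88 with E2 and −0.52 with ovaries, S100a9 at 6.13 and −0.68, Oxtr at 2.67 and 0.10, and Il17rb at −2.86 and −0.46. For these 4 genes the mean with ovaries in place was 0.138, 0.115, 1.37 and 12.4 FPKM.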

How the data were processed

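RNA was sequenced from 18 uterus libraries in 6 groups of 3. The values are FPKM that the authors computed with Cufflinks 2.0.2 and Cuffdiff, per the submitters' processing notes. No aligner, genome build or annotation is given in the sources used here, and the deposited table holds no read counts, so absolute depth is unknown. Genes of at least 1 FPKM in 3 or more libraries were tested as log2(FPKM + 1), a scale that understates the fold of low genes, with limma 3.58.1 in R 4.3.3 (group means over all 18 libraries, mean-variance trend, two-sided, Benjamini-Hochberg adjustment over all tested genes, adjusted p under 0.05). The labels do not say whether libraries are separate animals, and the p-values therefore cover only the spread among these samples. Libraries were put in batches 1 to 4 from the lowest values (up to 0.05 FPKM), by the share of genes with a like ratio between a pair of libraries, to 0.02 log2; this share was 3.56% to 12.8% within and 2.68% to 3.98% between batches 3 and 4 over the 6 libraries, and the batches came out alike in 3 of 3 other settings. Named genes had an adjusted p under 0.05, at least 5 FPKM in a group mean and no overlap between groups: the 15 largest each way, up to 4 each way per list, and Tsc2, Esr1, Esr2, Pgr and Igf1, with 5 each way for the difference between genotypes. Other genes named, such as Muc1, Epcam, Cdh1, Greb1, Padi1, Ptch1, Kdr, Cdk1 and LOC236598, fall outside this rule and were chosen after their values were seen. The members and all 61 gene lists were chosen with earlier results of these data known. A few genes are not reported here. Alternatives were other pseudocounts (0.1 and 0.25), filters, scalings, variance models, batch terms, the replicate block and each library left out. Promoters were matched by symbol to RefSeq on GRCm38.p6. Figures were drawn in Python 3.11.15.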

Additional observations from a re-analysis of the deposited data

Results flagged for a closer look

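The response to E2 differed between Tsc2-null and WT uteri at 1529 genes by the test of the difference itself (limma, adjusted p under 0.05), and the 5 largest differences each way among genes of at least 5 FPKM in a group are given here as the Tsc2-null minus the WT change in log2(FPKM + 1). The responses of Camp (4.67, adjusted p = 0.0038) and Ngp (4.39, adjusted p = 0.0229), granule proteins of maturing neutrophils, were higher in Tsc2-null uteri, where Camp stood at 162, 22.9 and 29.8 FPKM in the 3 E2 libraries against 0.141, 0.844 and 0.371 FPKM in WT E2. That of Cxcl12, a chemokine of the stroma, differed by 4.33 (adjusted p = 0.0306). LOC100502704 differed by 4.57 (adjusted p = 0.0458), with 333 FPKM in a single Tsc2-null E2 library. The fitted difference of LOC100504272, 12.3 (adjusted p = 0.0215), rests on a listed 0 in all 3 Tsc2-null ovx libraries. WT ovx stood at 3028, 2961 and 5308 FPKM. An exact 0 in such a table can be a failed estimate, so the value is not read as a fold.

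Scgb3a1 (−6.77, adjusted p = 0.00984), the membrane protein Pdzk1ip1 (−6.43, adjusted p = 0.00251), the mucus protein Fcgbp (−6.4, adjusted p = 0.0263), 9530053A07Rik (−6.28, adjusted p = 0.0249) and the calcium-binding protein Calb1 (−6.12, adjusted p = 0.0193) had a lower change with E2 in Tsc2-null than in WT uteri. The change of Calb1 was 1.68 in WT and −4.44 in Tsc2-null uteri, and that of Pdzk1ip1 was 4.35 and −2.07. Scgb3a1 stood at 3.03, 80.1 and 1.08 FPKM in Tsc2-null E2 against 301, 981 and 1472 FPKM in WT E2. Tsc2-null E2 replicate 2 was the highest of its group for each of these genes, with Pdzk1ip1 at 9.64, 105 and 8.14 FPKM in replicates 1, 2 and 3. Pdzk1ip1 was already at 88.9, 64.1 and 130 FPKM in Tsc2-null ovx against 2.26, 5.76 and 3.88 FPKM in WT ovx. Of 25 alternative settings, the call held in 25 for Camp and Pdzk1ip1, 24 for Scgb3a1, 22 for LOC100504272, 20 for Calb1, 19 for Ngp, Fcgbp and 9530053A07Rik, 15 for Cxcl12 and 14 for LOC100502704. The Tsc2-null ovx libraries all fell in batch 3 and Tsc2-null E2 replicates 1 and 2 in batch 4, so batch enters these differences. The causes were not tested.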

How the results depend on the processing

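The genes called in WT E2 against ovx numbered 6599, with 4484 higher and 2115 lower. The count of lower genes was 3264 with no filter, 579 with at least 5 FPKM in 3 libraries (4042 called in all), 3469 with median-ratio scaling, 4064 with quantile normalization and 4135 after rescaling without LOC236598, where 2245 were higher. Within batch 3 869 were lower, and within batch 4 1634 were called, 925 higher and 709 lower. Leaving out each library gave 4889 to 5945 called, 3294 to 4375 higher, 1570 to 1916 lower and 520 to 2383 for the difference between genotypes, which was 887 with the stricter filter and 136 with the replicate block. The replicate block gave 5749 called genes, 3906 higher and 1843 lower. The deviations of same-numbered libraries correlated at 0.0942 for number 1 and −0.013 for number 2, and those of unlike-numbered libraries at −0.186 to 0.17. Whether same-numbered samples share more than a number cannot be told from so few libraries. Zeros taken as missing, an alternative chosen after seeing the data, gave 6623. Signs turned with quantile normalization for Pgr (−0.00506), Ptges3 (−0.225), Ccnd3 (−0.16), Rpl27 (−0.346) and Rara (−0.035) and after rescaling without LOC236598 for Rfc2 (−0.0852) and Rara (−0.117). Of 201 called named genes 77 kept their call under every setting. The cause of these shifts was not tested.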
